A study of Mus musculus with 19 samples.

Results

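The genes described here are the 20 cytosolic aminoacyl-tRNA synthetases and 25 genes of the amino acid response that is governed by the transcription factor ATF4. They were chosen by name under a rule that uses no measured value, but with earlier results of these data known, and all 45 were found among the 52143 gene identifiers of the count table. All 45 also passed the filter on low counts, which left 19700 genes to test. By role they were 20 synthetases, 8 regulators, 5 enzymes of serine and one-carbon metabolism, 5 enzymes of other amino acids, 5 transporters and 2 further targets. RNA came from mouse induced pluripotent stem cells (iPSCs), made from embryonic fibroblasts of day 14.5 by infection with the STEMCCA lentivirus, which carries Oct4, Sox2, Klf4 and cMyc. The embryos were bred from parents heterozygous for db, a mutation in the leptin receptor gene (OB-R db/+). The control group (db_ctrl) held 4 wild type lines in 7 libraries, and the db/db group (db_mut) held 4 lines homozygous for the mutation in 8 libraries. The corrected group (db_corrected) held 2 lines in 4 libraries, in which the mutation of db/db iPSCs had been repaired with CRISPR-Cas9. All 3 groups therefore share the reprogramming virus and the embryonic fibroblast origin. The comparisons ask which of these transcripts differ with the mutation and which differ after its repair.

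Aminoacyl-tRNA synthetases join each amino acid to its transfer RNA and so supply the ribosome. When amino acids run short or the endoplasmic reticulum is stressed, kinases such as GCN2 and PERK phosphorylate the initiation factor eIF2α, which lowers general translation but raises translation of the Atf4 message. ATF4 then binds C/EBP-ATF composite elements and turns on synthetases, enzymes that make serine, asparagine and proline, and transporters that bring amino acids into the cell. ATF4 activity is thus set largely at translation, and the RNA levels below measure neither the ATF4 protein nor eIF2α phosphorylation.

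Values are CPM, which are counts scaled to the effective size of each library, computed on duplicates summed per line. The 19 libraries held 27333914 to 41203703 estimated counts (median 34455891). Lines carry names that are shared between an a and a b line: aB6_A5 and bB6_A5, aB6_B1 and bB6_B1 among control lines, and adb_db5 and bdb_db5, adb_db7 and bdb_db7 among db/db lines. Below, each pair of values is given with the a line first, and the corrected lines are db_c_1 and then db_c_2. Libraries of a shared name and the same duplicate number were as alike as duplicates of a line. The median absolute log2 ratio over 9149 genes was 0.04 to 0.111 within a name and 0.053 to 0.099 for duplicates. It was 0.137 to 0.268 across names at the same duplicate number. Duplicates of a line differ in that number, so their range comes from an unlike kind of pair. Both corrected lines differed by 0.041 to 0.086, and their db/db parent line is not named in the labels. Changes are log2 fold changes ± SE (standard error of the fit). The labels do not call duplicates separate cultures, so p-values reflect only how far these lines differ. They are too small where lines are near copies, and counts of calls therefore also follow with lines merged by name (2 units a group). The corrected lines have separate names and stay 2 units there, although they were as alike as duplicates. Merged p-values against the corrected lines may thus still be too small. The corrected group cannot be told apart from what else its 2 lines share, such as a parent clone, editing or handling. In the second library of adb_db7, 4.81% of counts lay on Gm42418, which overlaps sequence of ribosomal RNA, and 0.0688% to 0.514% did so in the other 18 libraries. Lepr was under 1 CPM in every line (0.186 to 0.718), and a count of the whole gene does not check the db mutation, which changes splicing.

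Promoter sequences from RefSeq (GRCm38.p6, 250 bases before to 50 after the transcription start) were found for 35 of the 45 genes. The C/EBP-ATF composite letters TGATGNAA, or TTNCATCA on the opposite strand, occurred in 12 of these 35 (34.3%), against 4.5% of 27025 genes with a promoter in the table and 3.0% of 13123 tested genes matched to it. A match describes letters and not a bound site. No other motif was searched. Genes with the letters included Asns, Chac1, Gars, Iars, Nupr1, Pycr1, Slc7a11, Tars, Trib3, Vldlr and Yars. The windows below are shown because they belong to genes with different outcomes: Asns, Chac1, Gars, Nupr1 and Pycr1 fell in corrected against db/db lines, while Slc7a11 and Vldlr did not pass the test. Each reads 5′ to 3′ on the strand of its gene, with the composite letters in capitals.
Asns at chr6:7693214-7693243 on the reverse strand: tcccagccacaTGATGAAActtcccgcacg
Chac1 at chr2:119351038-119351067 on the forward strand: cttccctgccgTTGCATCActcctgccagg
Gars at chr6:55037960-55037989 on the forward strand: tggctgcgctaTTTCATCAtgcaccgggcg
Nupr1 at chr7:126625562-126625591 on the reverse strand: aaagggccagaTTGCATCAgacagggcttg
Pycr1 at chr11:120643833-120643862 on the reverse strand: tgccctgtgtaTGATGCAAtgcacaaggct
Slc7a11 at chr3:50443642-50443671 on the reverse strand: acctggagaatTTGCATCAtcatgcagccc
Vldlr at chr19:27216809-27216838 on the forward strand: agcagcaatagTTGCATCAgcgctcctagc

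In the corrected lines most of the 45 transcripts were lower than in db/db lines and lower than in control lines, whereas db/db and control lines differed in few. Against db/db lines, 29 of 45 fell and 3 rose (edgeR's quasi-likelihood test, Benjamini-Hochberg adjusted p under 0.05 over all genes), where 18.0% of all tested genes fell and 18.7% rose. The median log2 fold change was -0.53 for the 45 genes and 0.02 for all tested genes. Against control lines, 29 of 45 fell and 0 rose, where 17.0% of all tested genes fell and 16.2% rose, with medians of -0.49 and -0.01. These comparisons share the corrected lines. In db/db against control lines, 2 rose and 4 fell, where 7.41% of all tested genes rose and 9.5% fell, with a median of -0.04 against 0.00. Once lines were merged by name, 21 fell and 2 rose against db/db lines, 20 fell and 0 rose against control lines, and 0 of 45 were called between db/db and control lines (6 had an unadjusted p under 0.05 in edgeR). All tested genes had 15.5%, 12.1% and 0.161% called at that unit. By limma-voom with a random effect for the line, 10 of the 45 genes were called between db/db and control lines, and DESeq2 called 8. Of all genes tested there, limma-voom called 4293 of 17546 and DESeq2 4730 of 19700, so the members were not called more often than other genes. Without the second library of adb_db7, 7, 33 and 29 of the 45 were called in the 3 comparisons, against 6, 32 and 29 with it. Over all tested genes 3441, 7230 and 6520 of 19706 were called without it, against 3332, 7235 and 6537 of 19700. Without db_c_1 or db_c_2, the median log2 fold change of the 45 genes was -0.538 and -0.537 against db/db lines and -0.485 and -0.471 against control lines. The medians of all tested genes were 0.021 and 0.013, and -0.001 and -0.003. Calls that ended in these fits are named below.

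The order of the lines was also counted, without a model. Both corrected lines lay below every db/db line for 37 of 45 genes and above every one for 6, where the shares of all tested genes were 28.8% and 31.8%. They lay below every control line for 34 and above for 2, where 30.4% and 31.3% of tested genes did so. Every db/db line lay below every control line for 6 genes and above for 2, where 12.2% and 11.1% of tested genes did so, and the groups overlapped for the other 37. As a summary by line, the median log2 level of the 45 genes relative to the control mean was -0.44 and -0.48 in db_c_1 and db_c_2, and lay between -0.14 and 0.09 in the 8 other lines. For the 20 synthetases alone it was -0.54 and -0.57 in the corrected lines and -0.12 to 0.05 in the others. Because RNA was measured in bulk, fewer cells of a type and less RNA per cell cannot be told apart.

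By promoter, of the 12 genes with these letters, 8 fell and 0 rose in corrected against db/db lines, with a median log2 fold change of -0.62. Of the 23 with a promoter but without the letters, 13 fell and 2 rose, with a median of -0.50. Against control lines the medians were -0.64 and -0.48, and for db/db against control lines they were -0.11 and -0.02.

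**Figure D1:**
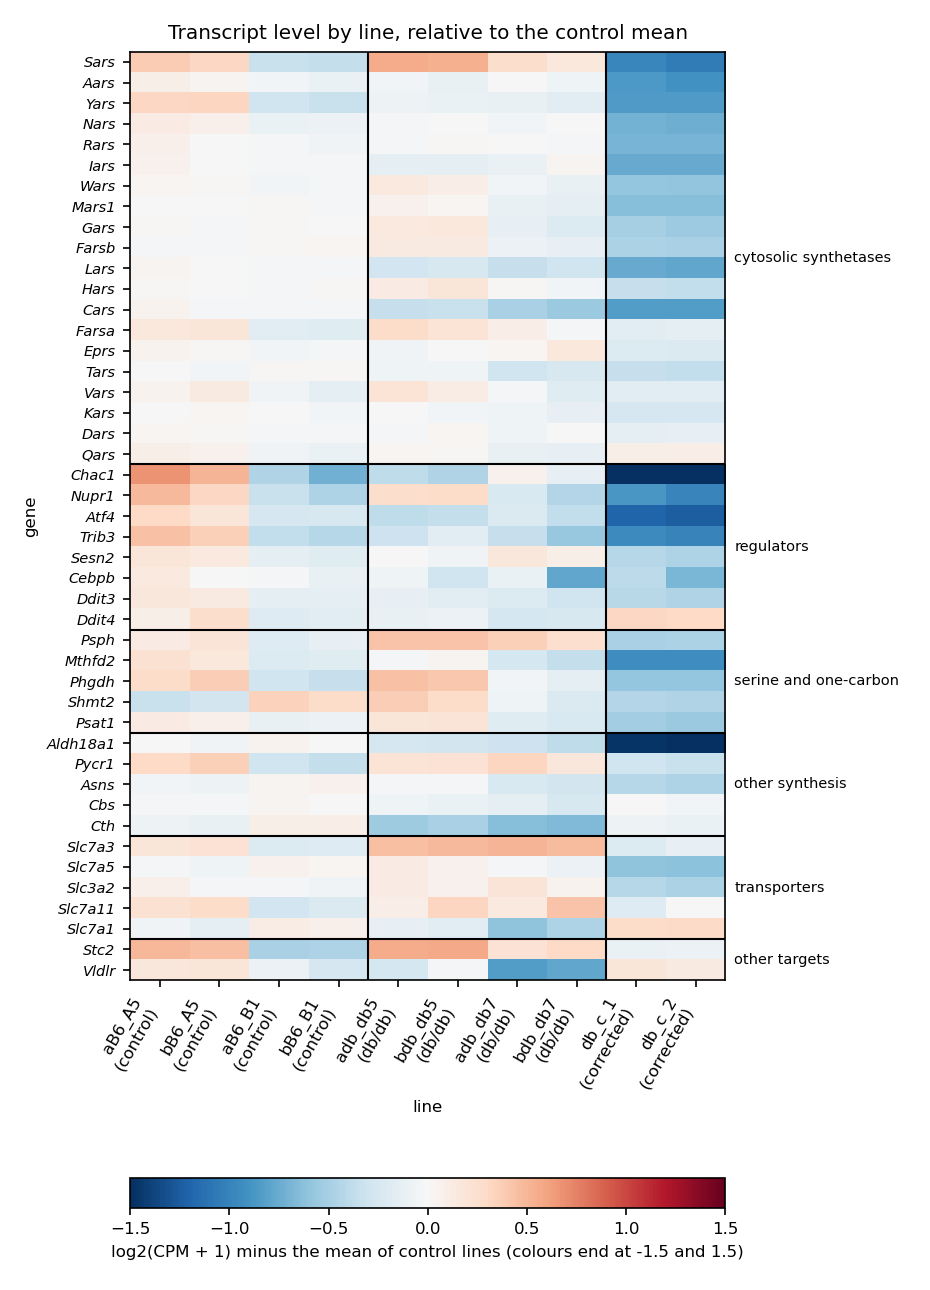
Heat map of the 45 genes (rows, by role) in the 10 lines (columns), as log2(CPM + 1) minus the mean of the control lines. Both corrected lines are blue in most rows, with median values of -0.44 and -0.48, while lines of a shared name have like colours.

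Abundant genes as a whole were lower in the corrected lines, and 31 of the 45 genes had a mean of at least 100 CPM. Among the 2257 tested genes at that level, 43.9% fell and 5.9% rose in corrected against db/db lines (median log2 fold change -0.22), and 24 of the 31 fell and 2 rose (median -0.54). Against control lines 38.6% fell and 7.7% rose (median -0.18), and 23 of the 31 fell and 0 rose (median -0.52). The shares also depended on the scaling of libraries. With library size alone in place of TMM, the median of all tested genes moved from 0.02 to 0.19 in corrected against db/db lines, and 74.2% of all calls were rises against 50.9%. On that scale 23 of the 45 genes fell and 6 rose (median -0.36). Against control lines the median of all tested genes moved from -0.01 to 0.12, the share of rises from 48.7% to 68.3%, and 27 of the 45 fell and 3 rose (median -0.36). For db/db against control lines, 33.5% of all calls were rises with library size alone against 43.8%, and 2 of the 45 rose and 6 fell. Library size alone ended the calls of Asns (log2 -0.13), Eprs (-0.07), Kars (-0.02), Nupr1 (-0.84), Phgdh (-0.60) and Pycr1 (-0.39) against db/db lines (edgeR adjusted p = 0.057 to 0.75), and those of Eprs (-0.08) and Kars (-0.12) against control lines (0.41 and 0.1). It also reduced the changes of Cars (-0.24), Farsb (-0.33), Hars (-0.27), Lars (-0.31) and Sesn2 (-0.33) against db/db lines and of Hars (-0.24) and Tars (-0.23) against control lines by over 1.5 times, with their calls kept. The same 6 genes lost their call against db/db lines when the test was limited to genes of at least 10 CPM on average, and Eprs did so against control lines. Under limma-voom with a random effect for lines, Chac1 lost both calls and Ddit3 that against control lines. No member called in any of the 3 comparisons changed its sign under any of the alternatives run.

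Atf4 itself (ENSMUSG00000042406, chromosome 15, 80255184 to 80257541, forward strand, GRCm38) was lowest in the corrected lines. It measured 539 and 496 CPM in the A5 lines, 368 and 369 in B1, 335 and 340.0 in db5, 374 and 337 in db7, and 189 and 185 after correction. The corrected lines lay below all others, and the db/db lines overlapped with the B1 control lines. Atf4 changed by log2 -0.89 ± 0.15 (SE) in corrected lines relative to db/db (edgeR adjusted p = 0.0019) and by log2 -1.24 ± 0.16 against control lines (edgeR adjusted p = 0.0005). Its difference between db/db and control lines did not pass the test (log2 -0.35 ± 0.12, edgeR adjusted p = 0.071). In the A5 lines the genes of chromosome 15, where Atf4 lies, had medians of 0.416 and 0.424 log2 above the lines of other names, and the part this plays in the control level of Atf4 was not tested. Without the A5 lines, the change of Atf4 against control lines was log2 -0.98 (edgeR adjusted p = 0.00014). That fit keeps only the B1 lines as controls, which are near copies, so its p-value may be too small.

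Chac1, which encodes an enzyme that breaks down glutathione and is among the most sensitive ATF4 targets, had the largest fold decrease of the 45 in both comparisons with corrected lines. Its level was 13.6 and 12 CPM in the A5 lines, 5.68 and 4.53 in B1, 6.02 and 5.71 in db5, 8.54 and 7.37 in db7, and 2.14 and 2.08 after correction. The A5 lines stood above the B1 lines by a ratio of 2.5, and the corrected lines were below every other line. The log2 fold change was -1.71 ± 0.44 against db/db lines (edgeR adjusted p = 0.013) and -2.08 ± 0.45 against control lines (edgeR adjusted p = 0.0065). These calls ended with either corrected line left out (edgeR adjusted p = 0.091 to 0.093 and 0.063 to 0.066).

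Trib3, a pseudokinase that restrains ATF4 and CHOP in a feedback loop, measured 31.8 and 30.0 CPM in the A5 lines, 17.8 and 16.9 in B1, 18.6 and 20.6 in db5, 18.1 and 15.4 in db7, and 11.5 and 11.1 after correction. Its A5 lines stood above all others, and the corrected lines lay below all others. Trib3 fell against control lines (log2 -1.09 ± 0.26, edgeR adjusted p = 0.011) and had a log2 difference of -0.68 ± 0.26 against db/db lines (edgeR adjusted p = 0.064). The former call ended when lines of a name were merged (edgeR adjusted p = 0.053). Ddit3, which encodes the stress factor CHOP, measured 11.5 and 11.2 CPM in the A5 lines, 9.06 and 9.02 in B1, 9.23 and 8.94 in db5, 8.64 and 8.05 in db7, and 7.37 and 7.11 after correction. The corrected lines again had the lowest values, by a smaller margin. Ddit3 fell against control lines (log2 -0.49 ± 0.13, edgeR adjusted p = 0.018, and 0.1 with lines merged by name) and had a log2 difference of -0.27 ± 0.13 against db/db lines (edgeR adjusted p = 0.14). Ddit3 overlaps a second annotated identifier, so its reads may have been divided, although the second held 1.92 counts in all.

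Among the other regulators, Nupr1, a small stress-induced chromatin protein, fell in corrected lines by log2 -1.02 ± 0.32 against db/db and -1.07 ± 0.32 against control lines. Both of these calls ended once lines were merged by name (edgeR adjusted p = 0.083 and 0.083), and also without adb_db5 or bdb_db5 for the former (0.065 each) and without aB6_A5 or bB6_A5 for the latter (0.054 and 0.059). Sesn2, which encodes the leucine sensor sestrin that inhibits mTORC1, changed by log2 -0.50 ± 0.11 against db/db (edgeR adjusted p = 0.0076) and -0.46 ± 0.11 against control lines (edgeR adjusted p = 0.013), and the latter call ended with lines merged by name (0.062). Ddit4, which encodes the mTORC1 inhibitor REDD1, went the other way and rose against db/db lines (log2 0.49 ± 0.13, edgeR adjusted p = 0.013, and 0.078 when lines of a name were merged). Against control lines Ddit4 had a log2 difference of 0.30 ± 0.13 (edgeR adjusted p = 0.093). Cebpb, a dimer partner of ATF4, was low in all groups (3.8 to 8.0 CPM) and did not pass the test in any comparison. Of the 8 regulators, 4 fell and 1 rose against db/db lines, 6 fell and 0 rose against control lines, and 0 were called between db/db and control lines. In the same order, 18.0% of all tested genes fell and 18.7% rose, 17.0% fell and 16.2% rose, and 9.5% fell and 7.41% rose.

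Of the 20 cytosolic synthetases, 15 fell and 0 rose in corrected against db/db lines (median -0.49), and 16 fell and 0 rose against control lines (median -0.56). Of all tested genes, 18.0% fell and 18.7% rose, and 17.0% fell and 16.2% rose, in these comparisons. Among those of at least 100 CPM on average, 43.9% and 38.6% fell (medians -0.22 and -0.18). With lines merged by name 12 and 13 synthetases fell, where 15.5% and 12.1% of all tested genes were called in either direction. Aars, the alanyl-tRNA synthetase, measured 473 and 459 CPM in the A5 lines, 432 and 415 in B1, 430.3 and 412 in db5, 446 and 426 in db7, and 244 and 236 after correction. The 8 control and db/db lines lay within 412 to 473 CPM, and both corrected lines were far below that range. Aars changed by log2 -0.84 ± 0.07 against db/db lines (edgeR adjusted p = 5.3e-05) and -0.89 ± 0.07 against control lines (edgeR adjusted p = 5.5e-05).

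The arginyl-tRNA synthetase gene Rars measured 212 and 202 CPM in the A5 lines, 197 and 194 in B1, 199 and 204 in db5, 202 and 199 in db7, and 124 and 124 after correction. Its level was flat over the 8 control and db/db lines, and it changed by log2 -0.70 ± 0.06 in the corrected lines against db/db lines (edgeR adjusted p = 4.6e-05) and by -0.70 ± 0.06 against control lines. Iars, for isoleucine, measured 416 and 396 CPM in the A5 lines, 387 and 388 in B1, 359 and 357 in db5, 369.7 and 407 in db7, and 235 and 234 after correction, and changed by log2 -0.67 ± 0.07 and -0.76 ± 0.07 (edgeR adjusted p = 0.00014 and 9.6e-05). Nars, for asparagine, measured 495 and 479 CPM in the A5 lines, 424 and 428 in B1, 447 and 457 in db5, 444 and 458 in db7, and 278 and 274 after correction, and changed by log2 -0.71 ± 0.07 and -0.72 ± 0.07 (edgeR adjusted p = 0.00015 and 0.00018). For all 3 genes the corrected lines lay below every other line, and db/db and control lines overlapped. Mars1, for methionine and listed in the table under its older symbol Mars, measured 229 and 231 CPM in the A5 lines, 232 and 227 in B1, 240.3 and 236 in db5, 212 and 209 in db7, and 147 and 148 after correction. It too was lowest in the corrected lines, with -0.61 ± 0.07 and -0.64 ± 0.07.

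Lars and Cars, for leucine and cysteine, fell in db/db against control lines as well as in both comparisons with corrected lines. Lars measured 356 and 345 CPM in the A5 lines, 342 and 344 in B1, 284 and 293 in db5, 272 and 281 in db7, and 204 and 201 after correction. The 3 groups did not overlap: control lines were highest, db/db lines between and corrected lines lowest. Lars had a log2 difference of -0.29 ± 0.04 in db/db against control lines (edgeR adjusted p = 0.002), -0.48 ± 0.05 in corrected against db/db lines and -0.77 ± 0.05 against control lines. Cars measured 196 and 187 CPM in the A5 lines, 187 and 187 in B1, 148 and 150.1 in db5, 135 and 128 in db7, and 106 and 106 after correction, in the same order of groups. Its fold changes were -0.43 ± 0.06 in db/db against control lines (edgeR adjusted p = 0.0014), -0.41 ± 0.07 in corrected against db/db lines and -0.84 ± 0.07 against control lines. Once lines were merged by name the db/db against control calls of both genes ended (edgeR adjusted p = 0.18 and 0.15), while both calls of corrected lines held.

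Sars, for serine, had the largest decrease of a synthetase in corrected against db/db lines and the largest ratio of A5 to B1 control lines. It measured 434 and 414 CPM in the A5 lines, 264 and 260.5 in B1, 489.8 and 483 in db5, 402 and 372 in db7, and 169 and 160.4 after correction. The db5 lines were highest, the B1 control lines were below all db/db lines, and the corrected lines were lowest. Sars changed by log2 -1.41 ± 0.23 (edgeR adjusted p = 0.0015) against db/db and -1.06 ± 0.23 (edgeR adjusted p = 0.0066) against control lines. The latter call ended with either corrected line left out (edgeR adjusted p = 0.057 to 0.07). Sars lies on chromosome 3, whose genes had medians of 0.432 and 0.446 log2 in the db7 lines, -0.215 and -0.191 in the B1 lines and -0.21 and -0.214 in the corrected lines relative to lines of other names. The decrease of Sars was larger than these medians, and their part in it was not tested. Yars, for tyrosine, showed a like split of control lines, with 163 and 164 CPM in the A5 lines against 107 and 104 in the B1 lines, and 72.7 and 72.5 in the corrected lines.

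The remaining called synthetases were also lower in the corrected lines. Against db/db and control lines in turn, the log2 fold changes were -0.75 and -0.89 for Yars, -0.62 and -0.59 for Wars (tryptophan), -0.52 and -0.52 for Gars (glycine), -0.50 and -0.49 for Farsb (the β subunit for phenylalanine) and -0.44 and -0.37 for Hars (histidine). They were -0.24 and -0.21 for Eprs (glutamate and proline), and -0.20 and -0.25 for Kars (lysine). Tars, for threonine, fell against control lines (log2 -0.36 ± 0.08) and had a log2 difference of -0.20 ± 0.07 against db/db lines (edgeR adjusted p = 0.059). When lines of a name were merged the calls of Yars ended against db/db lines, that of Tars against control lines, and those of Eprs and Kars in both (edgeR adjusted p = 0.053 to 0.12 over these 6 calls). The calls of Hars and Gars against control lines ended without db_c_2 (edgeR adjusted p = 0.055 and 0.058), and that of Eprs without aB6_A5, bB6_A5 or bB6_B1 (0.054 to 0.076). Dars, Farsa, Qars and Vars passed the test in no comparison. Qars, for glutamine, had the only positive values in corrected lines, with 0.14 ± 0.07 and 0.09 ± 0.07 and 263 and 265 CPM in the corrected lines.

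**Figure D2:**
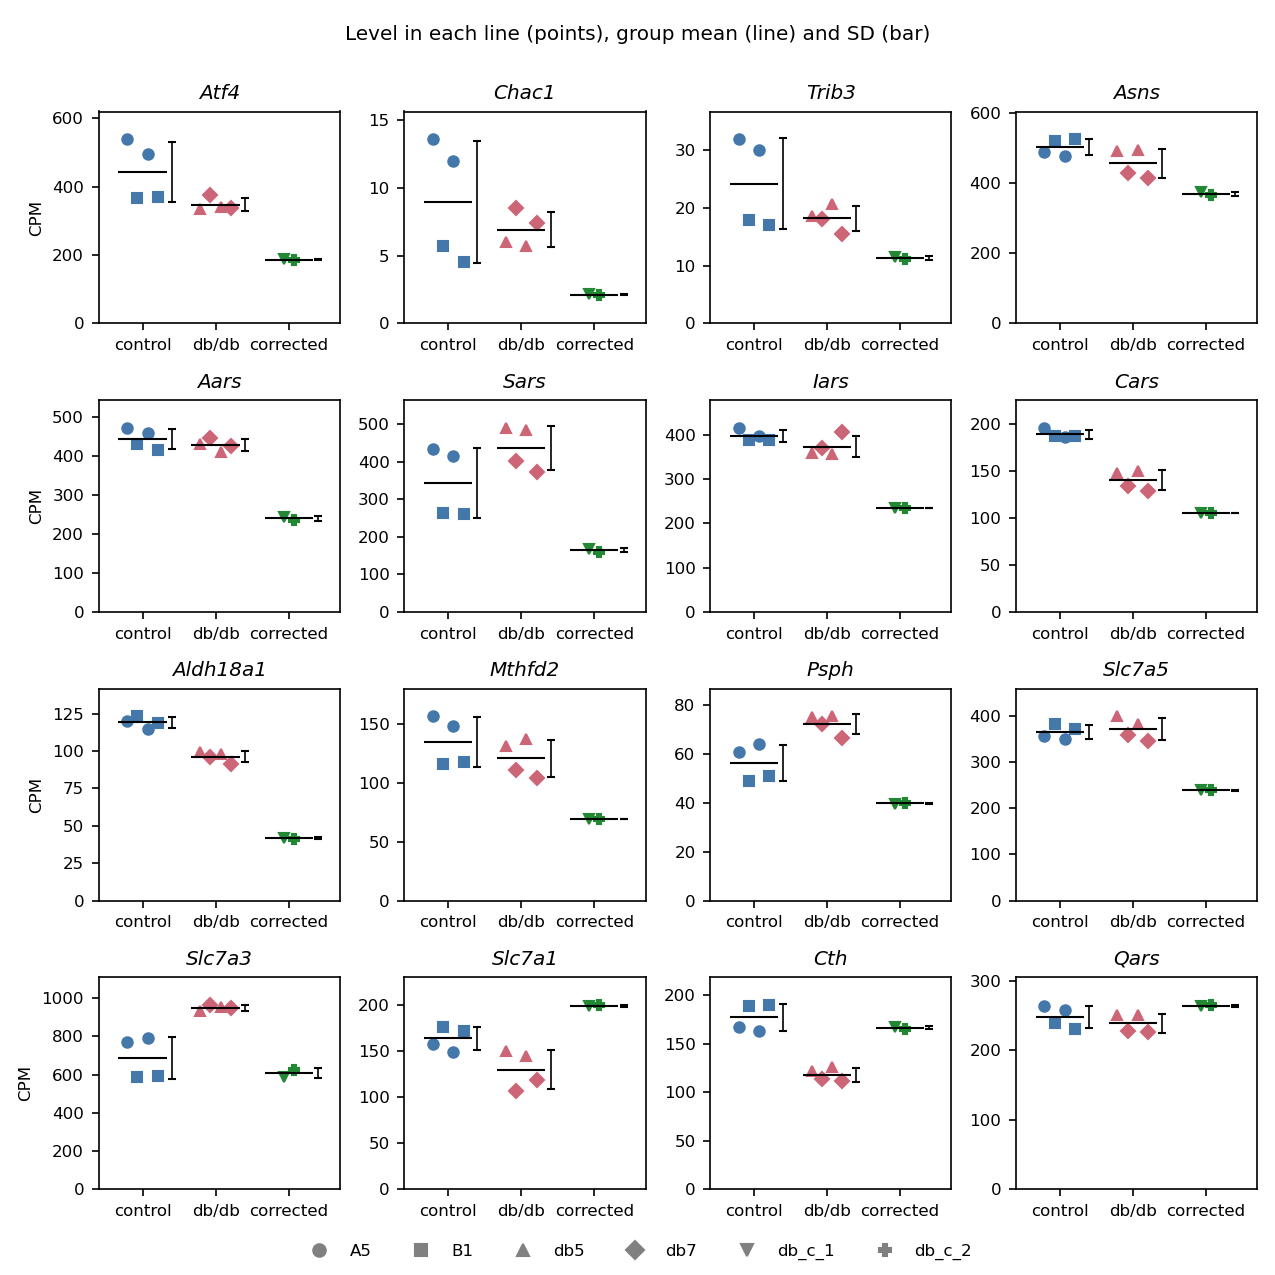
Level of 16 of the genes (CPM, axes from 0) in each line, with the group mean as a horizontal line and the SD over lines as a bar (n = 4 control, 4 db/db and 2 corrected lines). The corrected lines are lowest for Atf4, Chac1, Aars, Sars and Aldh18a1, while Slc7a1 is highest there and Cth lies within the control range.

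The complex-bound synthetases Eprs, Iars, Lars, Mars1, Qars, Rars, Kars and Dars (8 in all) form a complex held together by the scaffold proteins of Aimp1, Aimp2 and Eef1e1. Of these 8 synthetases, 6 fell in each comparison with the corrected lines (medians -0.36 and -0.45), and of the 12 others 9 and 10 fell (medians -0.51 and -0.56). With lines merged by name, 4 and 4 of the 8 and 8 and 9 of the 12 fell. Of all tested genes, 18.0% and 17.0% fell in the main fit, and 15.5% and 12.1% were called with lines merged. The difference between the kinds of synthetase was not tested. All 3 scaffold genes fell in both comparisons: Eef1e1 by -0.72 ± 0.12 and -0.60 ± 0.12, Aimp2 by -0.52 ± 0.08 and -0.60 ± 0.08, and Aimp1 by -1.13 ± 0.20 and -0.58 ± 0.19. Aimp1 lies on chromosome 3 and was the scaffold gene that rose in db/db against control lines (log2 0.55 ± 0.15, edgeR adjusted p = 0.034). Once lines were merged by name, 3 and 2 of the scaffold genes fell and 0 rose.

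Mitochondrial synthetases, which charge transfer RNA inside the organelle and are encoded by separate genes, were tested as a further list. Of 17, 6 fell and 1 rose in corrected against db/db lines (median -0.09), where 18.0% and 18.7% of all tested genes did so. Against control lines 7 fell and 0 rose (median -0.25), where 17.0% and 16.2% did so, and in db/db against control lines 4 fell and 1 rose (median -0.08), where 9.5% and 7.41% did so. Among tested genes of at least 10 CPM on average, 30.6% fell against db/db and 26.9% against control lines. Rars2 changed by log2 -0.64 ± 0.07 and Yars2 by -0.58 ± 0.07 against db/db lines, Fars2 by -0.51 ± 0.10 and Iars2 by -0.32 ± 0.07. Against control lines the lowest adjusted p-values were those of Yars2 (-0.69), Rars2 (-0.42), Iars2 (-0.39) and Ears2 (-0.30). When lines of a name were merged 2, 3 and 0 fell and 0 rose.

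All 5 genes of the serine and one-carbon route had lower means in the corrected lines, and 4 passed the test against db/db lines. Phgdh, Psat1 and Psph encode the 3 steps from a glycolytic intermediate to serine. Psat1, the aminotransferase, measured 417 and 406 CPM in the A5 lines, 356 and 362 in B1, 436 and 438 in db5, 339 and 329 in db7, and 267 and 262 after correction. The corrected lines were lowest, and the db5 lines were above the db7 lines. Psat1 changed by log2 -0.54 ± 0.13 against db/db lines (edgeR adjusted p = 0.01) and -0.54 ± 0.13 against control lines (edgeR adjusted p = 0.011), and both calls ended with lines merged by name (0.054 and 0.06).

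Psph, the phosphatase of the last step, was among the 2 genes that rose in db/db against control lines. It measured 60.8 and 64.3 CPM in the A5 lines, 49 and 51.1 in B1, 75.3 and 75.5 in db5, 72.2 and 66.6 in db7, and 39.7 and 39.9 after correction. The db/db lines were highest, the control lines between and the corrected lines lowest, with no overlap. Psph had a log2 difference of 0.36 ± 0.09 in db/db against control lines (edgeR adjusted p = 0.024), -0.86 ± 0.12 in corrected lines relative to db/db (edgeR adjusted p = 0.00052) and -0.50 ± 0.11 against control lines (edgeR adjusted p = 0.0084). The rise lost its call when any 1 of aB6_B1, bB6_B1, adb_db5, adb_db7 or bdb_db5 was left out (edgeR adjusted p = 0.051 to 0.066), and the rise and the fall against control lines both lost it once lines were merged by name (0.28 and 0.055). Phgdh, the first enzyme, ranged from 200 to 328 CPM in control and 229 to 346 in db/db lines and was 170 and 169 in the corrected lines. It fell against db/db lines (log2 -0.78 ± 0.24, edgeR adjusted p = 0.029), a call that ended when lines of a name were merged (0.083) and without adb_db5 or bdb_db5 (0.061 and 0.06). Phgdh is also on chromosome 3.

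Mthfd2, the mitochondrial enzyme that passes on one-carbon units, changed by log2 -0.81 ± 0.15 against db/db lines (edgeR adjusted p = 0.0031) and -0.96 ± 0.15 against control lines (edgeR adjusted p = 0.0017). Its corrected lines measured 69.3 CPM each, against 116 to 157 in control and 104 to 137 in db/db lines. Shmt2, which converts serine to glycine in mitochondria, did not pass the test, with -0.56 ± 0.22 against db/db lines (edgeR adjusted p = 0.073). Shmt2 was the 1 member of this route with higher levels in the B1 than in the A5 control lines, at 388 and 369 CPM against 242 and 252.

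Aldh18a1, the enzyme that starts proline synthesis from glutamate (ENSMUSG00000025007, chromosome 19, 40550257 to 40588463, reverse strand), had the lowest adjusted p of the 45 genes in both comparisons with corrected lines. It measured 119.9 and 114 CPM in the A5 lines, 123 and 119 in B1, 99.6 and 98.1 in db5, 95.8 and 91.3 in db7, and 42.1 and 41.1 after correction. The groups did not overlap, and the corrected lines were far below the others. Its fold changes were -1.21 ± 0.06 against db/db lines (edgeR adjusted p = 1.5e-05) and -1.52 ± 0.06 against control lines (edgeR adjusted p = 2.4e-06). In db/db against control lines it changed by log2 -0.31 ± 0.05 (edgeR adjusted p = 0.0031), a call that ended with lines merged by name (0.2). Pycr1, the last enzyme of the same pathway, fell against db/db lines (log2 -0.56 ± 0.20, edgeR adjusted p = 0.047) and had a log2 difference of -0.36 ± 0.19 against control lines (edgeR adjusted p = 0.18). The call of Pycr1 ended when any 1 db/db or corrected line was left out (edgeR adjusted p = 0.063 to 0.2) and once lines were merged by name (0.11).

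Asns, the asparagine synthetase and a standard readout of ATF4 (ENSMUSG00000029752, chromosome 6, 7675169 to 7693254, reverse strand), measured 489 and 479 CPM in the A5 lines, 519 and 526 in B1, 491 and 493 in db5, 429 and 414 in db7, and 374 and 365 after correction. The corrected lines lay below all others, by a modest margin. Asns changed by log2 -0.30 ± 0.08 against db/db lines (edgeR adjusted p = 0.018) and -0.44 ± 0.08 against control lines (edgeR adjusted p = 0.0037). The former call ended when lines of a name were merged (0.087), and the latter without db_c_2 (0.058).

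The transsulfuration enzymes, which make cysteine from homocysteine, were not lower in corrected than in db/db lines by this test. Cth measured 167 and 163 CPM in the A5 lines, 189 and 190.2 in B1, 122 and 126 in db5, 113 and 111 in db7, and 168 and 165 after correction. The db/db lines were below all others, and the corrected lines lay within the control range. Cth changed by log2 -0.59 ± 0.07 in db/db against control lines (edgeR adjusted p = 0.00065, and 0.11 with lines merged by name) and rose by log2 0.49 ± 0.08 in corrected lines relative to db/db (edgeR adjusted p = 0.0015). Between corrected and control lines it had a log2 difference of -0.09 ± 0.08 (edgeR adjusted p = 0.42). Cth lies on chromosome 3, where the db7 lines had the higher chromosome medians given above and the lowest Cth. Cbs, the preceding enzyme, was called in no comparison and ranged from 41.6 to 51.0 CPM over all 10 lines.

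Slc7a5 and Slc3a2 encode the 2 chains of the LAT1 transporter for large neutral amino acids such as leucine, and both fell. Slc7a5 measured 357 and 349 CPM in the A5 lines, 382 and 371 in B1, 398 and 381 in db5, 359 and 344 in db7, and 239.7 and 238 after correction, and Slc3a2 measured 340.2 and 319 CPM in the A5 lines, 319 and 311 in B1, 349.8 and 338 in db5, 367 and 335 in db7, and 239 and 232 after correction. In both genes the corrected lines were below every other line, and control and db/db lines overlapped. Against db/db lines they changed by log2 -0.63 ± 0.07 and -0.56 ± 0.06 (edgeR adjusted p = 0.00023 and 0.00022), and against control lines by -0.61 ± 0.07 and -0.45 ± 0.06 (edgeR adjusted p = 0.00035 and 0.00073).

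The cationic amino acid transporters moved in opposite directions. Slc7a3 (CAT3) measured 769 and 792 CPM in the A5 lines, 589 and 592 in B1, 931 and 955 in db5, 965 and 946 in db7, and 588 and 625 after correction. The db/db lines were above all others, and the corrected lines lay near the B1 control lines. Slc7a3 rose by log2 0.47 ± 0.10 in db/db against control lines (edgeR adjusted p = 0.012, and 0.22 once lines were merged by name) and changed by log2 -0.65 ± 0.12 in corrected lines relative to db/db (edgeR adjusted p = 0.0033). It had a log2 difference of -0.18 ± 0.12 between corrected and control lines (edgeR adjusted p = 0.29). Slc7a1 (CAT1) rose by log2 0.62 ± 0.13 in corrected lines relative to db/db (edgeR adjusted p = 0.0048), with 198 and 200 CPM in the corrected lines against 107 to 149 in db/db and 149 to 176 in control lines. Its difference from control lines was 0.28 ± 0.13 (edgeR adjusted p = 0.12).

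Slc7a11, the cystine importer, had the lowest mean of the listed genes in each group. It measured 2.63 and 2.75 CPM in the A5 lines, 1.55 and 1.68 in B1, 2.32 and 2.89 in db5, 2.45 and 3.17 in db7, and 1.72 and 2.12 after correction. Corrected lines lay below db/db lines and overlapped with control lines, and no comparison passed the test (log2 -0.50 ± 0.27 against db/db lines, edgeR adjusted p = 0.17). Vldlr, a lipoprotein receptor, and Stc2, a secreted glycoprotein, are further targets and were also called in no comparison. Vldlr was 2.3 and 2.4 CPM in the db7 lines and 3.9 to 5.7 in the other lines. Stc2 was 40.4 and 39.0 CPM in the A5 lines and 19.9 and 20.1 in the B1 lines, with the corrected lines at 26.2 and 26.6.

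**Figure D3:**
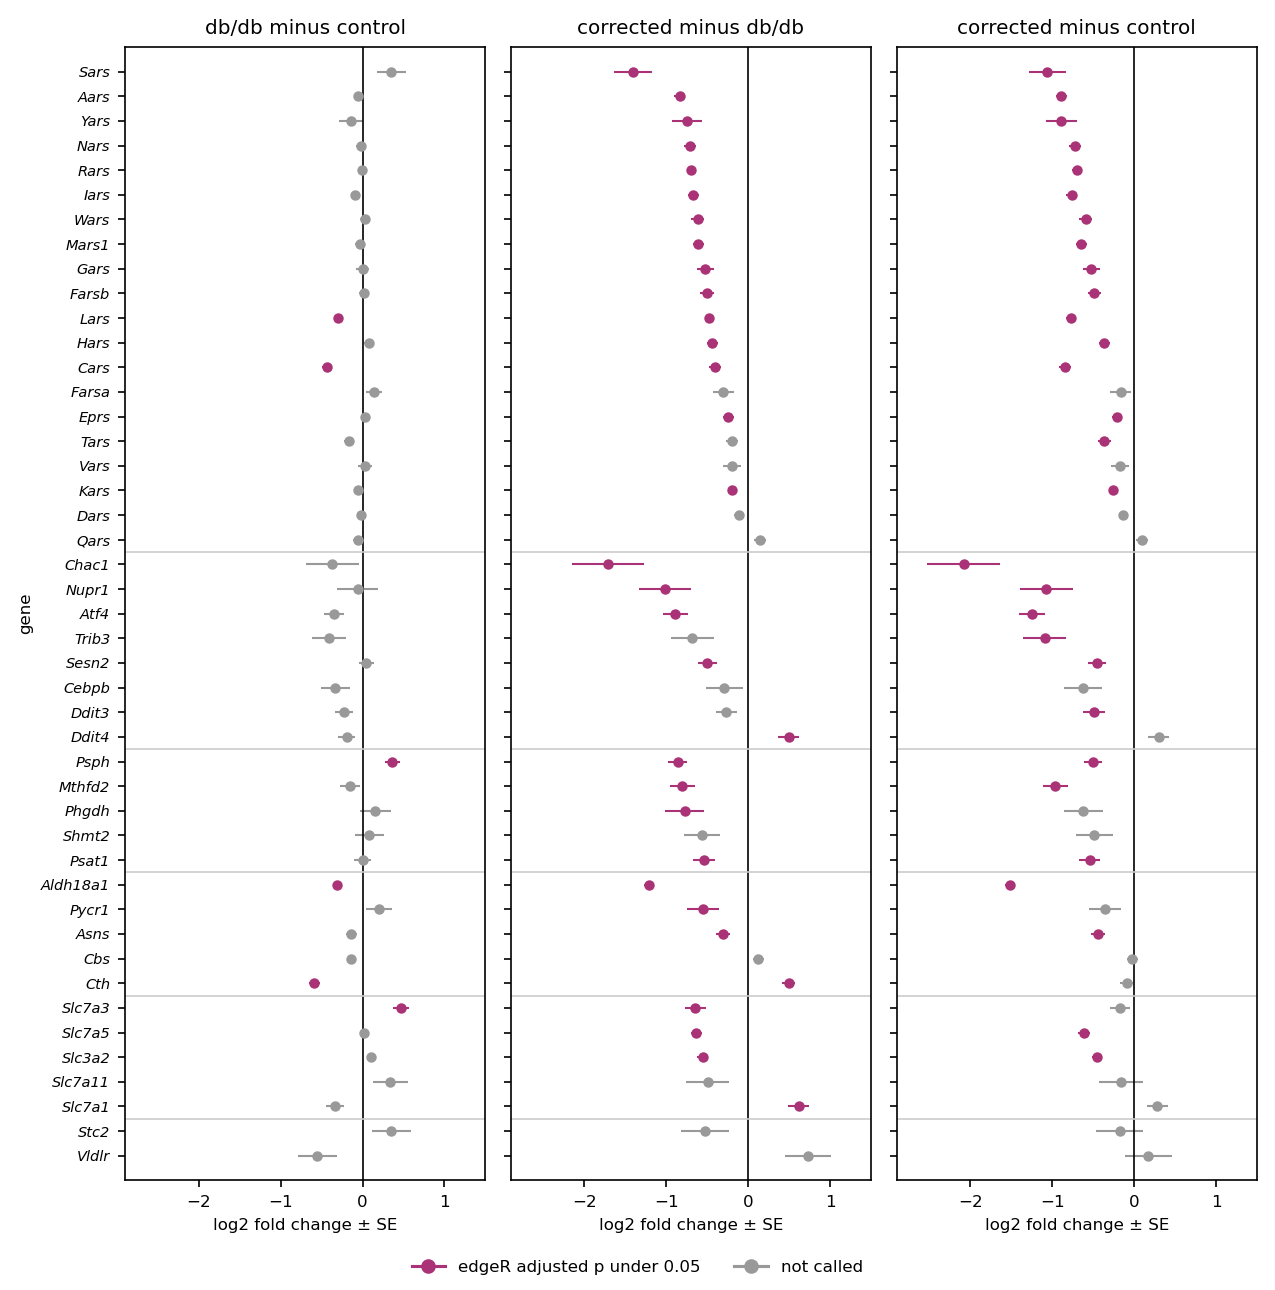
Log2 fold changes ± SE of the 45 genes in the 3 comparisons, ordered by role and by the change in corrected against db/db lines. Purple points passed edgeR's test (6, 32 and 29 genes from left to right), and most purple points of the middle and right panels lie left of 0.

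Within a genotype, the line name carried differences as large as many of those between groups. Between A5 and B1 control lines the ratio of means was 2.5 for Chac1, 1.98 for Stc2, 1.8 for Nupr1, 1.78 for Trib3, 1.66 for Slc7a11, 1.62 for Sars, 1.58 for Pycr1, 1.56 for Phgdh and 1.55 for Yars, with A5 higher in each. It was 0.65 for Shmt2. The A5 over B1 ratio was 1.4 for Atf4. Between db7 and db5 lines the ratio was 1.36 for Chac1, 0.55 for Vldlr, 0.64 for Nupr1, 0.7 for Phgdh, 0.73 for Shmt2 and 0.76 for Psat1. These are descriptions of 2 lines a name that are near copies, with no test. Leaving out a whole name moved several changes. Such a fit keeps only lines of the other name in that group, which are near copies, so its p-values may be too small. Without the A5 lines, the changes against control lines were log2 -1.27 for Chac1, -0.62 for Trib3, -0.67 for Sars, -0.54 for Yars, -0.32 for Ddit3, -0.33 for Psph and -0.28 for Sesn2, each still called (edgeR adjusted p = 0.00045 to 0.045). Nupr1 (-0.59), Psat1 (-0.44) and Eprs (-0.18) lost that call without A5 (edgeR adjusted p = 0.052 to 0.11). Without the B1 lines, the rise in db/db lines was log2 0.29 for Slc7a3 (edgeR adjusted p = 0.0096) and 0.22 for Psph, which lost its call (0.074). Without the db5 lines Psph lost that call too (0.084), and Psat1 changed by -0.33 in corrected lines relative to db/db (edgeR adjusted p = 0.019). Calls against db/db lines ended there for Nupr1 (-0.66), Phgdh (-0.48), Asns (-0.18), Kars (-0.15) and Pycr1 (-0.57), with edgeR adjusted p = 0.053 to 0.15. Without the db7 lines they ended for Chac1 (-1.47), Ddit4 (0.41) and Pycr1 (-0.54), with edgeR adjusted p = 0.053 to 0.12. The 36 genes outside chromosomes 3, 6 and 15, the chromosomes on which whole line names stood apart, gave 23 falls and 2 rises in corrected against db/db lines, 23 falls and 0 rises against control lines, and 3 falls and 2 rises in db/db against control lines. In the same order, 18.0% of all tested genes, on any chromosome, fell and 18.7% rose, 17.0% fell and 16.2% rose, and 9.5% fell and 7.41% rose. The B1 lines had chromosome 6 medians of 0.259 and 0.256, and Asns, Gars and Mthfd2 lie there.

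**Figure D4:**
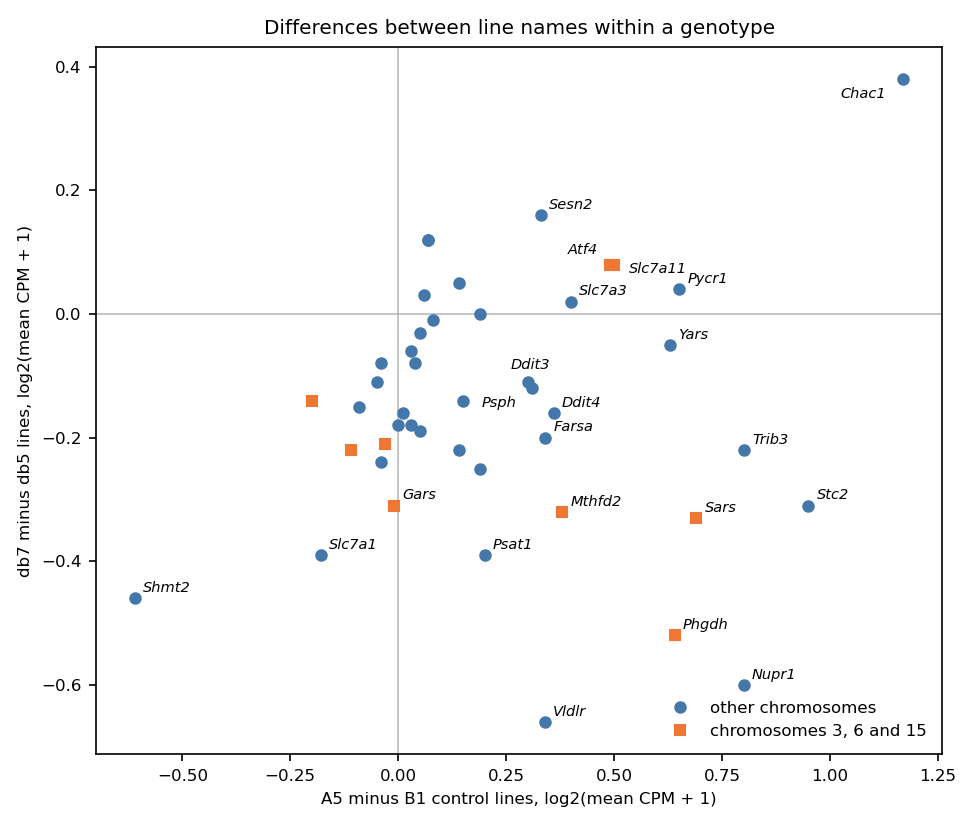
Differences between line names within a genotype for the 45 genes, as log2(mean CPM + 1) of A5 minus B1 control lines (x) and of db7 minus db5 lines (y), with genes of chromosomes 3, 6 and 15 as squares. Chac1, at ratios of 2.5 and 1.36, was higher in A5 and in db7, while Nupr1, at 1.8 and 0.64, was higher in A5 and lower in db7.

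Upstream of ATF4, the eIF2α kinases and their partners were mixed. Of 15 genes, 7 fell and 1 rose in corrected against db/db lines (median -0.14), beside 18.0% and 18.7% of all tested genes. Against control lines 7 fell and 1 rose (median -0.26), beside 17.0% and 16.2%, and in db/db against control lines 0 fell and 2 rose (median 0.03), beside 9.5% and 7.41%. Among tested genes of at least 10 CPM on average, 30.6% fell against db/db and 26.9% against control lines. Eif2ak4, which encodes GCN2, the sensor of uncharged transfer RNA, measured 45.5, 45.1 and 45.2 CPM on average in control, db/db and corrected lines and passed no test. Impact, an inhibitor of GCN2 activation, changed by log2 -0.95 ± 0.10 in corrected lines relative to db/db (edgeR adjusted p = 0.00014) and rose by log2 0.42 ± 0.08 in db/db against control lines (edgeR adjusted p = 0.0059). Ppp1r15a, the stress-induced phosphatase subunit GADD34, changed by log2 -0.58 ± 0.08 and -0.77 ± 0.08. Eif2ak2, the double-stranded RNA sensor PKR, changed by log2 -0.97 ± 0.17 and -0.76 ± 0.17. Eif2ak3, which encodes PERK, was the gene that rose against db/db lines (log2 0.31 ± 0.10, edgeR adjusted p = 0.039). Its difference from control lines was 0.13 ± 0.10 (edgeR adjusted p = 0.34). Dnajc3 was the gene that rose in corrected against control lines (log2 0.445 ± 0.12, edgeR adjusted p = 0.021), and it also rose in db/db lines (0.36 ± 0.10, 0.04). When lines of a name were merged 5 and 3 of the 15 fell and 0 rose, and 0 were called between db/db and control lines.

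A further list held other genes of the integrated stress response. Of 30, 5 fell and 2 rose in corrected against db/db lines (median -0.07), which is no larger a share than the 18.0% and 18.7% of all tested genes. Against control lines 9 fell and 1 rose (median -0.28), beside 17.0% and 16.2%, and in db/db against control lines 5 fell and 1 rose (median -0.08), beside 9.5% and 7.41%. Among tested genes of at least 10 CPM on average, 26.9% fell against control lines. Shmt1 and Mthfd1l, one-carbon enzymes of the cytosol and the mitochondrion, changed by log2 -0.90 ± 0.09 and -0.79 ± 0.07 against db/db lines, and by -0.91 ± 0.09 and -0.87 ± 0.07 against control lines. Xpot, an exporter of transfer RNA from the nucleus, changed by log2 -0.31 ± 0.06 and -0.28 ± 0.06. Slc7a6, a transporter that pairs with the chain of Slc3a2, rose by log2 1.14 ± 0.23 against db/db and 1.21 ± 0.23 against control lines. Atf3, an immediate stress factor, changed by log2 -1.55 ± 0.16 in db/db against control lines (edgeR adjusted p = 0.00043), Gdf15, a secreted stress hormone, by -0.83 ± 0.14, and Pck2, the mitochondrial phosphoenolpyruvate carboxykinase, by -0.50 ± 0.12. Against control lines Atf3, Gdf15 and Pck2 were also lower in corrected lines, by log2 -1.32 ± 0.21, -1.06 ± 0.18 and -0.79 ± 0.15 (edgeR adjusted p = 0.0015, 0.0021 and 0.0037). Between corrected and db/db lines the log2 differences of these 3 genes were 0.23 ± 0.20, -0.24 ± 0.18 and -0.29 ± 0.15 (edgeR adjusted p = 0.38, 0.31 and 0.15). Sqstm1, the autophagy receptor p62, rose by log2 0.52 ± 0.07 in db/db against control lines and changed by log2 -0.83 ± 0.08 in corrected against db/db lines. With lines merged by name 4 fell and 1 rose, 5 fell and 1 rose, and 0 were called, in the same order of comparisons.

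The unfolded protein response, which shares the PERK branch with ATF4 but is read here through targets of ATF6 and XBP1, had 6 of 18 genes fall and 0 rise in corrected against db/db lines (median -0.21), where 18.0% and 18.7% of all tested genes did so. Against control lines 7 fell and 2 rose (median -0.25), where 17.0% and 16.2% did so. In db/db against control lines 2 fell and 0 rose (median 0.04), a share near the 9.5% and below the 7.41% of all tested genes. Among tested genes of at least 10 CPM on average, 30.6% fell against db/db and 26.9% against control lines. Herpud1, a component of protein disposal at the endoplasmic reticulum, fell in all 3 comparisons, by -1.07 ± 0.22 in db/db against control, -0.98 ± 0.28 in corrected against db/db and -2.05 ± 0.30 in corrected against control lines. Xbp1 changed by log2 -0.54 ± 0.09 and -0.46 ± 0.09 in the corrected lines. Dnajb9, a chaperone cofactor, changed by log2 -0.33 ± 0.07 in db/db and -0.50 ± 0.08 in corrected lines, both against control lines. Once lines were merged by name 1 of the 18 fell against db/db lines, 3 fell against control lines, 0 rose in either, and 0 were called between db/db and control lines.

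Cell type markers were read beside these results. Summed levels of 10 pluripotency genes were 6370 to 6880 CPM in control, 6750 to 7210 in db/db and 6060 to 6080 in corrected lines, with each of the 10 above 1 CPM in every group mean. Sums of 10 fibroblast markers were 223 to 308, 111 to 171 and 151 to 193 CPM, with 3 of 10 under 1 CPM in each group. Sums of 10 markers of extraembryonic endoderm were 521 to 600, 416 to 534 and 678 to 697 CPM. Sums of 8 trophoblast markers were 43.3 to 67.6, 49.3 to 76.8 and 58.5 to 59.5 CPM. Sums of 6 neural markers were 86.2 to 119, 60.8 to 87.5 and 36.9 to 38.1 CPM, and those of 4 blood markers 2.3 to 3.57, 2.19 to 2.77 and 5.35 to 5.54 CPM, with the haemoglobin gene Hbb-bs at 0 in each group. Endoderm and blood sums were thus highest and pluripotency and neural sums lowest in the corrected lines, and their part in the levels of the synthetases and ATF4 targets was not tested. A sum follows its most abundant genes, and single markers went both ways in corrected against db/db lines. Nanog rose (log2 0.42) while Sox2 changed by -0.71, and Gata3 rose (2.96) while Tfap2c changed by -1.52. Col4a1 rose by log2 1.41 and Tubb3 changed by -1.63, while Lama1 and Nes had differences of -0.27 and 0.48 (edgeR adjusted p = 0.13 and 0.073). Lyz2 made up 3.68 CPM of the blood sum in corrected lines on average.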

How the data were processed

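Poly(A) RNA of 19 libraries from 10 lines was sequenced on a NovaSeq6000 after stranded TruSeq preparation, per the labels' protocols. Values are estimated counts of each gene as deposited by the authors. The submitters' processing notes name kallisto and GRCm38. Not given in the sources used here are kallisto's version and index, the summing of transcripts to genes and the use of strand. Estimated counts divide reads between similar transcripts, and 79.7% of the values were whole within 1e-06. Of 52143 gene identifiers, 51250 matched GENCODE M21, and the 45 genes were matched by identifier. Totals were 27333914 to 41203703 per library, and counting error is largest, relative to the level, for genes of a few CPM.

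Counts were rounded, and duplicates were summed per line, since the labels do not say that they were separate cultures. All 10 lines entered 1 fit with edgeR 4.0.16 in R 4.3.3 (filterByExpr, TMM, quasi-likelihood F-test, Benjamini-Hochberg adjustment over 19700 genes, threshold 0.05). The SE is the log2 fold change divided by the square root of its F statistic. Chromosome medians used genes of at least 10 CPM on average, and values by line used log2(CPM + 1). The scripts were tested on simulated data before use. A further promoter window is not reported here. Tables and figures were made with Python 3.11.15, pandas 2.3.3 and matplotlib 3.10.9.

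The members and lists were chosen with earlier results of these data known. Values in every line were given for Atf4, Asns, Trib3, Ddit3, Chac1, Slc7a11 and Psat1 and for the 8 called members of lowest adjusted p in each comparison. Sars, Yars, Phgdh, Mthfd2, Shmt2, Slc7a1, Vldlr and Stc2 were added with values or ranges by line after their values were seen. Every called member was named, and of each further list at most 4 called genes of lowest adjusted p in a comparison. Slc7a6 and Eif2ak3, outside that rule, were added after their values were seen. GCN2 (Eif2ak4) was added as background.

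The duplicate numbers of control and db/db libraries pair them: differences between duplicates correlated at 0.193 to 0.568 over 12 pairs of lines and 9149 genes. Alternatives were other scaling factors, DESeq2 1.42.0, limma-voom (limma 3.58.1) with random effects or a replicate block, other filters, fits of the compared groups alone, shared names as the unit, and leaving out each line, each shared name or the second library of adb_db7. The limma-voom fit with the shared name as a random effect and the shared-name fit of the compared groups alone were added after the data were seen.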

Additional observations from a re-analysis of the deposited data

Results flagged for a closer look

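Among the 90 groups of 4 lines examined (45 genes in the control and in the db/db group), 2 held a line that stood far from the other 3, and chance flags about 1 in 20 groups. Cars was highest in aB6_A5, at 196 CPM, against 187 in each of the other 3 control lines. Atf4 was highest in adb_db7, at 374 CPM, against 335 to 340.0 in the other db/db lines. Neither line overlapped with the corrected lines, which measured 106 CPM for Cars and 185 to 189 for Atf4. Of the flagged lines, aB6_A5 is the control line without a second library, and adb_db7 holds the library with 4.81% of counts on Gm42418. Whether this plays a part was not tested.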

How the results depend on the processing

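With 2 corrected lines that are near copies, calls against them rest on few independent units. Called members between corrected and db/db lines (32 in the main fit) numbered 21 and 21 without db_c_1 or db_c_2, where the lone line is assumed to vary like the other groups, 29 to 37 without a shared name and 23 to 38 under the other alternatives. Asns, Chac1, Ddit4, Eprs, Kars, Nupr1, Phgdh, Psat1, Pycr1, Sesn2 and Yars lost their call in both of these cases. Fewer of all tested genes were called in these fits too. The members' median log2 fold change there was -0.538 and -0.537, against -0.53 in the main fit. With both corrected lines kept, calls over all tested genes ran from 7347 of 19546 to 8427 of 19572 without a shared name. Under the other alternatives they ran from 3281 of 21134 to 7995 of 19700, against 7235 of 19700 in the main fit. Between corrected and control lines (29), fits that kept both corrected lines called 29 to 34 members without a shared name and 20 to 32 otherwise. Calls over all tested genes in those fits ran from 6690 of 19471 to 8756 of 19572 and from 2547 of 21134 to 7774 of 19369, against 6537 of 19700. The members' median log2 fold change was -0.485 without db_c_1 and -0.471 without db_c_2. Chac1, Ddit3, Eprs, Kars, Nupr1, Psat1, Psph, Sars, Sesn2, Tars, Trib3 and Yars lost their call in both cases, and Asns, Gars and Hars without db_c_2. Between db/db and control lines (6), limma-voom with a random effect for lines called 10, and shared names as the unit called 0, also in a fit of these groups alone. Paired by duplicate number, limma-voom with the replicate block called 10 and without it 8, where it called 3203 and 3128 of all 16233 genes. Leaving out shared names gave 10 to 14 calls (A5 14, B1 11, db5 11, db7 10), and leaving out single lines gave 5 to 7. Over all genes, 5397 of 19471, 2415 of 19416, 5410 of 19546 and 3448 of 19572 were called without these names in turn. Without single lines it was 1991 of 19583 to 3211 of 19630, against 3332 of 19700 in the main fit. Apart from these counts the cause was not tested. No called member changed sign in any alternative. Relative counting error is largest at low levels, as for Slc7a11, Chac1, Vldlr and Cebpb, at 1.6 to 13.6 CPM. Chac1 also differed between line names, with an A5 over B1 ratio of 2.5.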
